A study of Mus musculus with 8 samples.

Results

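The Hox genes are the homeobox transcription factor genes that lie in 4 clusters, HoxA to HoxD. They were taken as every row of the deposited table whose symbol is Hox followed by a cluster letter and a paralogue number, which gave 39 genes of 23951 (11 in HoxA, 10 in HoxB, 9 in HoxC and 9 in HoxD). A Hox gene was called expressed when its FPKM (fragments scaled by transcript length and by library size, so a level per length) was at least 1 in 2 or more of 8 libraries, and silent otherwise. By this rule 2 genes, Hoxa2 and Hoxa3, were expressed and 37 were silent.

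The study measured RNA in epithelial crypts of the mouse jejunum, the middle stretch of the small intestine. All mice carried 1 floxed BRAF-V600E allele, an activating form of the kinase BRAF, and Villin-CreER(T2), a tamoxifen-dependent Cre recombinase driven by an intestinal epithelial promoter. The BRAF group (3 libraries) carried these alleles alone, the SMAD4KO_BRAF group (3 libraries) also carried Smad4 f/f, and the CDX2KO_BRAF group (2 libraries) also carried Cdx2 f/f. Tamoxifen was given on 4 consecutive days and crypts were taken 1 day later, so every group had been exposed to tamoxifen and none lacked the BRAF allele. Crypts were freed from the underlying mesenchyme with 3 mM EDTA and a 70 micron filter. The labels give no age, sex or animal for a library, and the p-values therefore measure the spread between these libraries, which may be technical.

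The targeted genes were checked first. Smad4 encodes a transcription factor that carries the signals of BMP and TGF-beta receptors into the nucleus. It had 42.5, 47.0 and 42.4 FPKM in the BRAF libraries and 10.7, 8.38 and 7.66 in the SMAD4KO_BRAF libraries (log2 difference -2.19 ± 0.13 SE, adjusted p = 0.00163). Cdx2, the intestinal homeobox factor, was not lower where its deletion was labelled: it had 64.2, 82.6 and 80.1 FPKM in the BRAF libraries and 155 and 121 in the 2 libraries labelled CDX2KO_BRAF (0.86 ± 0.18, adjusted p = 0.0213). That call was lost without BRAF library 0 or 2 or either library labelled CDX2KO_BRAF (highest adjusted p 0.146). A value for the whole gene does not check a floxed part, and which exons the reads covered was not analysed here, so every direction below is given for the libraries labelled CDX2KO_BRAF. Braf had 3.66 to 4.88 FPKM in all 8 libraries.

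Hox proteins bind DNA through a homeodomain, often together with PBX and MEIS partner proteins, and give cells their position along the body axis. Within a cluster the genes stand in the order of their paralogue numbers, and in the embryo low numbers are active further towards the head and high numbers further towards the tail, an arrangement called collinearity. The active or silent state of the clusters is kept by Trithorax and Polycomb group proteins, retinoic acid acts on the low-numbered genes, and the caudal-type factors (the Cdx genes) act on Hox genes in the embryo. In the gut, the mesenchyme as well as the epithelium uses Hox genes, with different members along the length of the tube.

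Hox signal in these crypts lay mostly in the low- and middle-numbered genes. Of the 8 genes with paralogue numbers 1 to 3, 2 were expressed, both in HoxA, and 2 (Hoxb1 and Hoxd1) were listed at 0 in all 8 libraries. All 15 genes with numbers 4 to 8 were above 0 in at least 1 library and none was expressed. Of the 16 genes with numbers 9 to 13, 12 were listed at 0 in all 8 libraries. The 4 with any signal were Hoxa9 and Hoxa10 (highest 0.0230 and 0.0258 FPKM, in 1 library each), Hoxb9 (0.0844) and Hoxb13 (0.631 and 0.306 in BRAF libraries 1 and 0, which is 1.59 and 1 times its smallest depth-corrected value, listed at 0 in the other 6). In all, 14 of 39 genes were listed at 0 throughout.

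**Figure D1:**
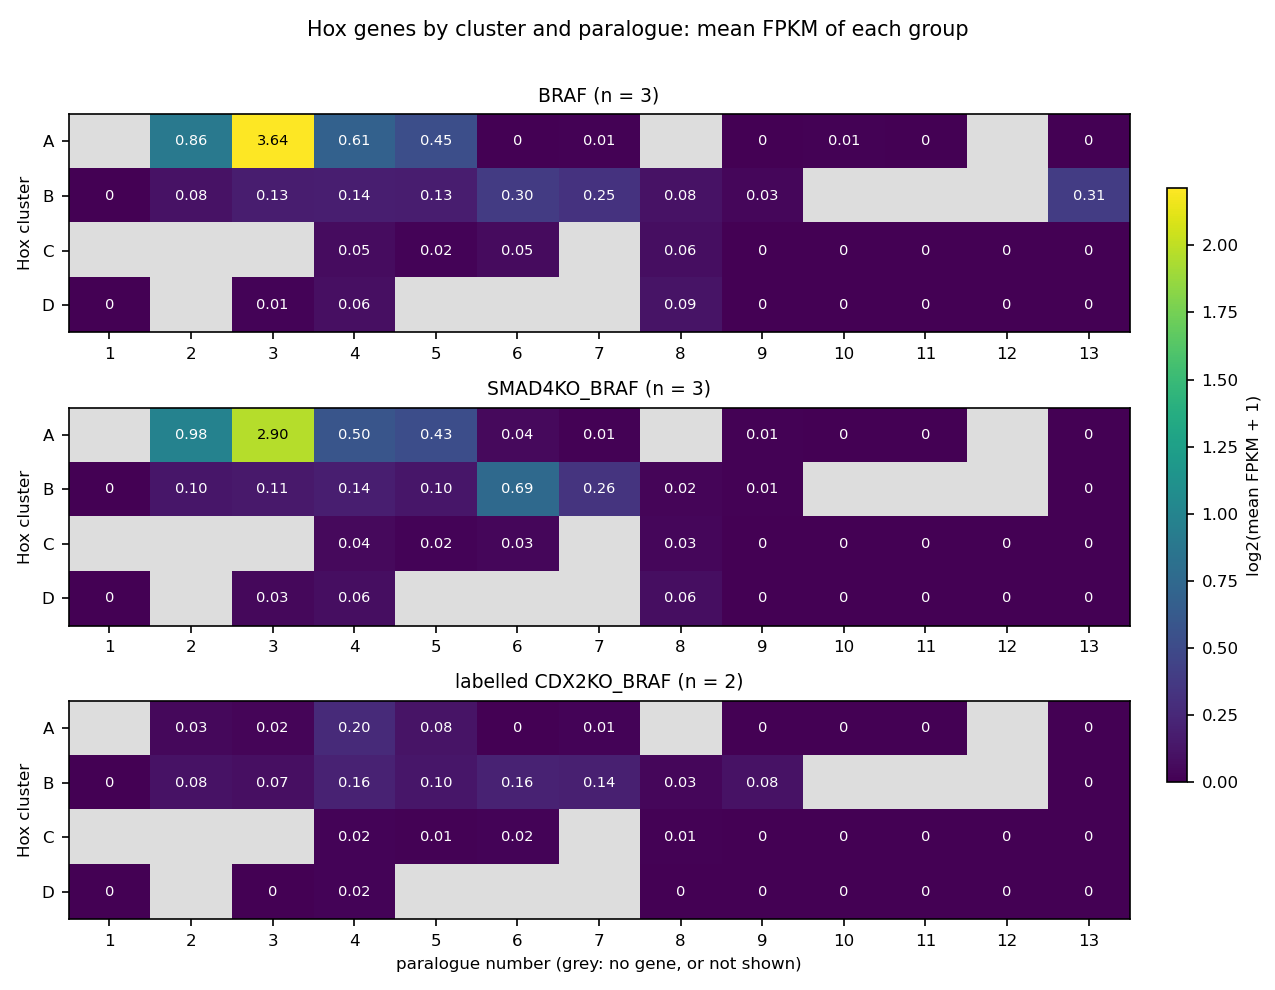
Hox genes by cluster (rows A to D) and paralogue number (columns 1 to 13), 1 panel for each group of 3, 3 and 2 libraries. Colour is log2 of the mean FPKM plus 1, the printed number is the mean FPKM, and grey marks positions with no gene or not shown. Hoxa3 and Hoxa2 stand out in the BRAF and SMAD4KO_BRAF panels (Hoxa3 means 3.64 and 2.90) and not in the panel labelled CDX2KO_BRAF (0.0212).

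The clusters differed in how far the silent genes were from the limit. In HoxA the silent genes next to Hoxa3 came closest, Hoxa4 with a highest value of 0.848 FPKM and Hoxa5 with 0.706, while Hoxa6 reached 0.126 and Hoxa7 0.0361, and Hoxa11 and Hoxa13 were listed at 0. In HoxB, Hoxb6 lay just outside the rule, with 1.40 FPKM in SMAD4KO_BRAF library 0 and at most 0.533 in the other 7. The other HoxB genes peaked at 0.489 (Hoxb7), 0.284 (Hoxb4), 0.256 (Hoxb5), 0.230 (Hoxb3), 0.205 (Hoxb2) and 0.173 (Hoxb8). In HoxC the genes Hoxc4, Hoxc5, Hoxc6 and Hoxc8 had highest values of 0.119, 0.0520, 0.0883 and 0.172, and Hoxc9 to Hoxc13 were listed at 0. In HoxD the genes Hoxd3, Hoxd4 and Hoxd8 had highest values of 0.0514, 0.143 and 0.235, and Hoxd1 and Hoxd9 to Hoxd13 were listed at 0. Of the 37 silent genes, 33 stayed under 0.5 FPKM in every library and the other 4 were Hoxa4, Hoxa5, Hoxb6 and Hoxb13.

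Hoxa2 and Hoxa3 are neighbours in HoxA. Hoxa2 is known for patterning of the hindbrain and the second pharyngeal arch, and Hoxa3 for the thymus, parathyroid and the neck. The 250 bases before the start that RefSeq lists for each gene (build GRCm38.p6, which is not the build of the expression table) are shown because these 2 genes are the only expressed members and changed together. Both windows lie on the minus strand, Hoxa2 at chr6:52164832-52165081 and Hoxa3 at chr6:52213068-52213317, and they are printed 5′ to 3′ with motif matches in capitals.
Hoxa2: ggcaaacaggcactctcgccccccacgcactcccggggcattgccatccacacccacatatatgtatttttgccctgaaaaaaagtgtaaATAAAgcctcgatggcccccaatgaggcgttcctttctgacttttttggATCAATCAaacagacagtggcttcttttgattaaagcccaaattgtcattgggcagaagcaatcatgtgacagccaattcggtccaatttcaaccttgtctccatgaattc
Hoxa3: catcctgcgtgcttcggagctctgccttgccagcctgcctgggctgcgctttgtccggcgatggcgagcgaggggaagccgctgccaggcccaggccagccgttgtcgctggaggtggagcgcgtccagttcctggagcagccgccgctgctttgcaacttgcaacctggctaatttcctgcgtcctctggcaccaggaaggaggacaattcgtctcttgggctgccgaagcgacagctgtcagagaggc

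Short motifs were searched on both strands of these windows: TTTAT, the core bound by caudal-type factors, TTTATG, a longer form that contains it, TGATNNAT, a site for a HOX protein with PBX, and the SMAD palindrome GTCTAGAC. The Hoxa2 window held TTTAT on the opposite strand, 160 to 156 bases before the start, and TGATNNAT on the opposite strand, 111 to 104 bases before it. The Hoxa3 window held none of the 4 and was richer in G and C (64.8% against 46.4%). Which start of Hoxa3 these crypts use was not examined, so the lack of matches holds for this window only. Among all 32851 RefSeq windows of this length, 37.3% held TTTAT, 10.8% TTTATG, 7.68% TGATNNAT and 0.167% the palindrome. Among 24 windows of 22 Hox genes the shares were 37.5%, 20.8%, 16.7% and 0%. A match describes letters only, and no binding was measured.

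Hoxa3 was the most abundant Hox transcript in all 6 libraries of the BRAF and SMAD4KO_BRAF groups. Its FPKM was 3.35, 3.54 and 4.02 in BRAF libraries 0, 1 and 2, it was 1.96, 3.59 and 3.14 in SMAD4KO_BRAF libraries 0, 1 and 2, and it was 0.0179 and 0.0245 in libraries 0 and 1 labelled CDX2KO_BRAF. The first 2 groups overlapped, with SMAD4KO_BRAF library 0 lowest, and both libraries labelled CDX2KO_BRAF lay far below all others. Hoxa3 alone made up 32.0% to 65.1% of the summed FPKM of all Hox genes in those 6 libraries, against 1.92% and 1.36% in the libraries labelled CDX2KO_BRAF.

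Hoxa2 stood at a lower level, and it too was lowest in the libraries labelled CDX2KO_BRAF. Its FPKM was 0.731, 1.14 and 0.715 in the BRAF libraries, 0.633, 1.26 and 1.03 in the SMAD4KO_BRAF libraries, and 0 and 0.0623 in the libraries labelled CDX2KO_BRAF. It lay just inside the rule, with at least 1 FPKM in 3 libraries. In the BRAF group the mean levels were 3.64 ± 0.347 FPKM (SD, n = 3) for Hoxa3, 0.862 ± 0.241 for Hoxa2, 0.609 ± 0.218 for Hoxa4 and 0.445 ± 0.202 for Hoxa5. Hoxa3 stood clear of the others, and Hoxa2 to Hoxa5 stood close together: neighbours in this order overlapped in their libraries. Hoxa2 was second in all libraries of these groups except SMAD4KO_BRAF library 0, where Hoxb6 was.

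**Figure D2:**
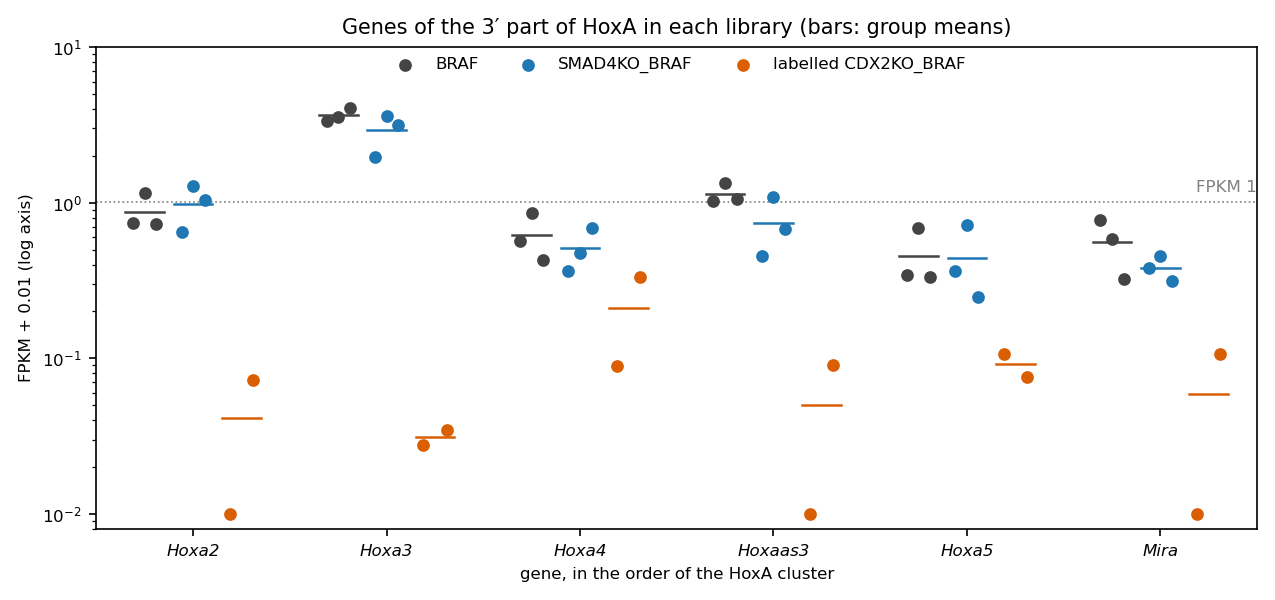
FPKM plus 0.01 on a log axis for 6 genes in the order of the HoxA cluster, 1 point per library and a bar at each group mean. For Hoxa2, Hoxa3, Hoxa4, Hoxa5 and the antisense transcripts Hoxaas3 and Mira, both points labelled CDX2KO_BRAF lie below all BRAF points.

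The comparison of SMAD4KO_BRAF with BRAF asks what loss of Smad4 adds in BRAF-activated crypts, and neither expressed Hox gene passed the test in it. On the log2(FPKM + 1) scale used for all differences below, Hoxa3 differed by -0.27 ± 0.19 (SE, 95% interval -0.71 to 0.17, adjusted p = 0.497) and Hoxa2 by 0.08 ± 0.19 (-0.37 to 0.53, adjusted p = 0.860). Both intervals include 0. With limma, 0 of 2 tested Hox genes were called and 0 had an unadjusted p under 0.05. Of all 12084 tested genes 9 were called, 0.0745%. Hoxa2 was lower, not higher, without SMAD4KO_BRAF library 1 (-0.0240).

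Silent genes were read in a fit without the filter, which tested all 25 Hox genes above 0 in any library. None of the 25 was called in this comparison and none had an unadjusted p under 0.05. Of all genes in that fit 0.0267% were called, so none of 25 is not read as a result about the Hox genes. None had every SMAD4KO_BRAF library on one side of every BRAF library, which 7.63% of all genes in that fit had in the lower direction and 7.46% in the higher. Hoxb6 and Hoxb13 were uneven between libraries. Hoxb6 had 1.40, 0.391 and 0.285 FPKM in the SMAD4KO_BRAF libraries against 0.200, 0.533 and 0.174 in the BRAF libraries, so its higher group mean came from 1 library, and Hoxb13 was at 0 in all 3 SMAD4KO_BRAF libraries and in BRAF library 2.

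The comparison of CDX2KO_BRAF with BRAF asks the same of Cdx2. Hoxa3 fell by 2.18 ± 0.21 (95% interval -2.67 to -1.69, adjusted p = 0.00128) and Hoxa2 fell by 0.85 ± 0.21 (-1.34 to -0.35, adjusted p = 0.0402) in the libraries labelled CDX2KO_BRAF. Both were lower in 2 of 2 libraries than in any BRAF library, as 20.2% of all genes in the fit without the filter were. That is 2 of 2 tested Hox genes, where 7.21% of all tested genes were called lower and 6.89% higher. Both members passed the filter only through the BRAF and SMAD4KO_BRAF groups, so this count is not read as support. The log scale with a pseudocount of 1 understates the change of such low genes: with a pseudocount of 0.1, Hoxa3 differed by -4.94 and Hoxa2 by -2.89.

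The call of Hoxa3 passed in 15 of 15 alternative settings that tested it (adjusted p 0.000264 to 0.0192). The call of Hoxa2 was lost in 8 of 14 (adjusted p 0.0141 to 0.201). These were the fits without any 1 of the 3 BRAF libraries, SMAD4KO_BRAF library 1 or 2 or either library labelled CDX2KO_BRAF, and the fit with a block for column number.

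Set against SMAD4KO_BRAF, which carried its own added deletion, the libraries labelled CDX2KO_BRAF were lower by similar amounts. Hoxa3 fell by 1.91 ± 0.21 (95% interval -2.40 to -1.42, adjusted p = 0.00264) and Hoxa2 fell by 0.93 ± 0.21 (-1.43 to -0.43, adjusted p = 0.0344), 2 of 2 tested where 5.01% of all tested genes were called lower. The filter fixed this count in the same way, and nothing is read from it. The Hoxa3 call passed in 15 of 15 alternatives and the Hoxa2 call was lost in 7 of 15, among them those without BRAF library 2, SMAD4KO_BRAF library 1 or 2 or either library labelled CDX2KO_BRAF (highest adjusted p 0.189). This comparison shares the 2 libraries labelled CDX2KO_BRAF with the one before, so the results are not independent.

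The depth behind these values is known only relatively, because the table holds no counts. After division by an estimated relative depth, low values of a gene tended to be whole multiples of its smallest value: 55.7% of 12514 low values lay within 0.1 of a whole multiple, where an even spread would give 20%. The depth was estimated from the same low genes, which builds in part of this excess, so the share is not read as a test. In units of that smallest value Hoxa3 had 118 to 253 in the BRAF libraries, 60.3 to 125 in the SMAD4KO_BRAF libraries and 1 in each library labelled CDX2KO_BRAF, its smallest nonzero value. The relative depth was 0.711 to 1.46 over the 8 libraries (BRAF library 0 set to 1), and it was 1.29 and 0.950 in the libraries labelled CDX2KO_BRAF. In all 8 libraries 10924 to 11570 genes had at least 1 FPKM.

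The silent neighbours Hoxa4 and Hoxa5 were named by position, after their values were seen. Hoxa4, a gene of the neck and upper trunk, had 0.559, 0.848 and 0.421 FPKM in the BRAF libraries, 0.354, 0.466 and 0.682 in the SMAD4KO_BRAF libraries, and 0.0792 and 0.325 in the libraries labelled CDX2KO_BRAF. Hoxa5, with known roles in the lung and the gut, had 0.334, 0.679 and 0.323, then 0.355, 0.706 and 0.238, then 0.0969 and 0.0659. For both genes the libraries labelled CDX2KO_BRAF lay below the other 6, but their values were few multiples of the smallest one (at most 6.40 for Hoxa4 and 9.12 for Hoxa5). In the fit without the filter they differed from BRAF by -0.42 ± 0.15 (adjusted p = 0.168) and -0.41 ± 0.16 (adjusted p = 0.196) and were not called.

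Over the 25 Hox genes of that fit, 2 were called lower in the libraries labelled CDX2KO_BRAF than in BRAF and 0 higher (3.67% and 3.73% of all genes in the fit), and 4 had an unadjusted p under 0.05. Every library labelled CDX2KO_BRAF lay below every BRAF library for 4 of the 25, Hoxa2, Hoxa3, Hoxa4 and Hoxa5, and 20.2% of all genes in the fit did so. None of the 25 lay above in both, as 19% of all genes did. Against SMAD4KO_BRAF the same held for 7 of 25, namely these 4 with Hoxb3, Hoxb6 and Hoxd3, where the share of all genes was 20.7%. Hoxb9 alone lay above in both (0.0759 and 0.0828 FPKM against 0, 0 and 0.0244), as 18.4% of all genes did. The median difference of the 25 genes from BRAF was -0.05, and that of all 18704 genes in the fit was -0.01.

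Adjacent transcripts of HoxA were then examined by their order in RefSeq, since the cluster holds several long noncoding RNAs between the Hox genes. These were also chosen by position, after values were seen. Of 31 other RefSeq genes inside the 4 clusters, 14 are in the table, 10 of these were listed at 0 in all libraries, and 1 reached 1 FPKM. That one was Hoxaas3, an antisense RNA of HoxA that the table lists as 2700086A05Rik. It had 1.02, 1.33 and 1.05 FPKM in the BRAF libraries, 0.444, 1.08 and 0.670 in the SMAD4KO_BRAF libraries, and 0 and 0.0805 in the libraries labelled CDX2KO_BRAF.

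Hoxaas3 (2700086A05Rik) thus had the same order of groups as Hoxa3. It fell by 1.03 ± 0.21 (adjusted p = 0.0193) against BRAF, and the call was lost without BRAF library 2 (adjusted p = 0.0540) or either library labelled CDX2KO_BRAF. Hoxaas3 passed the filter only through the BRAF and SMAD4KO_BRAF groups, so this call is not read as support. Against SMAD4KO_BRAF its difference was -0.72 ± 0.21 (adjusted p = 0.0679). Mira, a noncoding RNA between Hoxa6 and Hoxa7, had 0.759, 0.577 and 0.315, then 0.369, 0.442 and 0.305, then 0 and 0.0974 FPKM, and stayed under the filter. In the fit without the filter it fell by 0.56 ± 0.12 against BRAF (adjusted p = 0.0452).

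The kit does not mark strand, so reads from a gene and from a transcript overlapping it on the other strand cannot be told apart. In the GENCODE M21 annotation, Hoxa3 has 6014 exonic bases, of which 297 (4.94%) are shared with Hoxaas3 and 503 (8.36%) with Hoxaas2, which is not a row of the table. Also on the other strand, Gm29430 shares 437 bases (7.27%) and 5730596B20Rik 292 (4.86%), and neither is a row of the table. A readthrough model shares 482 bases with Hoxa3 and 267 of the 1775 exonic bases of Hoxa2 (15%). Of the 2889 exonic bases of Hoxaas3, 886 (30.7%) overlap genes of the other strand. How the authors' counting assigned such reads is not given in the sources used here, and the values of Hoxa2, Hoxa3 and Hoxaas3 are uncertain to that extent.

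No gene next to the cluster was called lower. Of the 6 genes that flank HoxA, 3 on each side, 5 were tested and all 5 had a positive difference from BRAF in the libraries labelled CDX2KO_BRAF. The median over all tested genes was 0.02. Of the 5, 2 were called higher, and 6.89% of all tested genes were. As 7.21% of all tested genes were called lower, none of 5 is not read as a difference from genes inside HoxA. Snx10, a sorting nexin gene that flanks the cluster, had 9.05, 9.39 and 10.2 FPKM in the BRAF libraries, 9.45, 14.3 and 16.0 in the SMAD4KO_BRAF libraries, and 47.2 and 43.7 in the libraries labelled CDX2KO_BRAF. It rose by 2.14 ± 0.20 (adjusted p = 0.00124), and the call passed in 16 of 16 alternatives. Skap2, an adaptor protein gene that also flanks it, rose by 0.45 ± 0.11 (adjusted p = 0.0397), a call kept in 6 of 16 alternatives and lost without any 1 of the 3 BRAF libraries, SMAD4KO_BRAF library 2 or either library labelled CDX2KO_BRAF (highest adjusted p 0.221). The flanking genes Hibadh and Tax1bp1 differed by 0.44 ± 0.15 (adjusted p = 0.104) and 0.61 ± 0.21 (adjusted p = 0.101), and Evx1 was listed at 0 throughout.

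**Figure D3:**
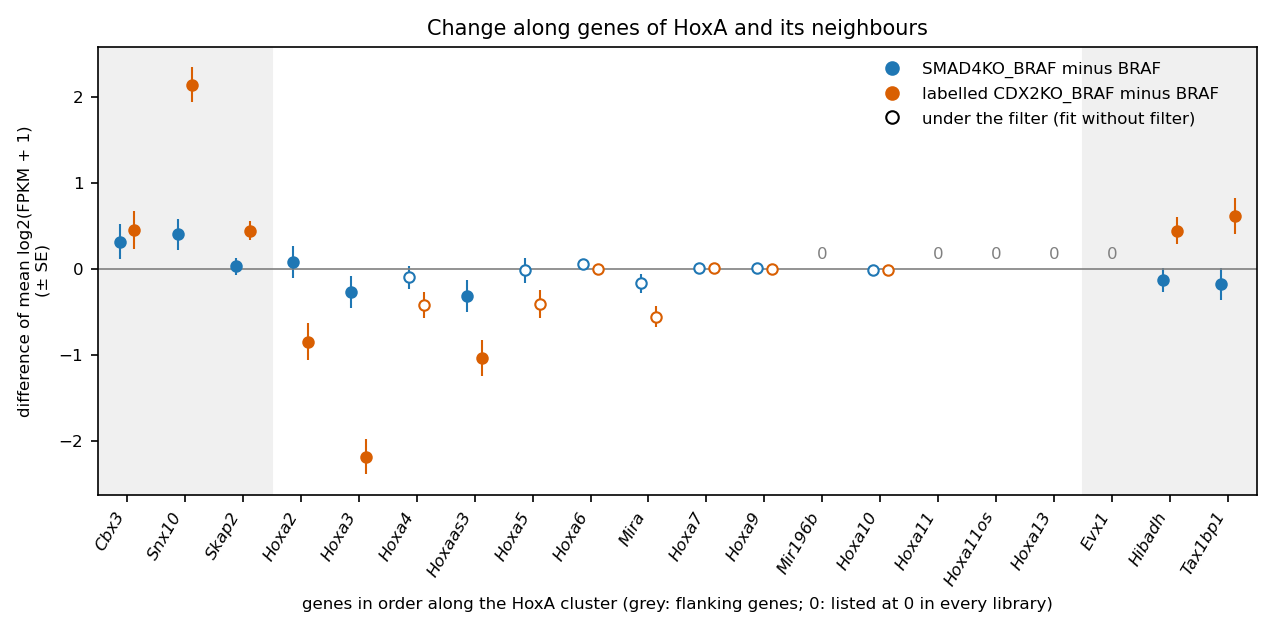
Differences of mean log2(FPKM + 1) from BRAF (± SE) for genes in order along HoxA, with 3 flanking genes on each side in grey. Filled points passed the filter and open points are from the fit without it. The orange points of the libraries labelled CDX2KO_BRAF are below 0 from Hoxa2 to Hoxa5 and at Mira (lowest -2.18 at Hoxa3), and Snx10 outside the cluster is at 2.14.

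Other cell types were checked because mesenchyme of the gut also uses Hox genes, and in bulk RNA fewer cells of a type and less RNA per cell cannot be told apart. Epithelial markers were high everywhere (9 of 9 tested, sums of 6095 to 9452 FPKM in BRAF, 5338 to 7671 in SMAD4KO_BRAF and 7130 to 8488 in the libraries labelled CDX2KO_BRAF), although Cdh17 and Vil1 were called lower there than in BRAF (-1.37, adjusted p = 0.0336, and -0.92, adjusted p = 0.0494). These calls passed in 10 and 7 of 16 alternatives and were lost, among others, without BRAF library 0 or 2 or either library labelled CDX2KO_BRAF for both and also without BRAF library 1, SMAD4KO_BRAF library 1 or SMAD4KO_BRAF library 2 for Vil1 (highest adjusted p 0.200 and 0.225). The 15 mesenchyme and smooth muscle markers summed to 11.0, 127 and 30.6 FPKM in the BRAF libraries, 12.9, 40.8 and 50.4 in the SMAD4KO_BRAF libraries, and 4.76 and 20.9 in the libraries labelled CDX2KO_BRAF, with Foxf2 at 0. The 9 T cell markers summed to 24.3, 653 and 119, then 38.0, 117 and 345, then 8.05 and 45.8. The 7 B cell and myeloid markers summed to 4.95 to 21.8, 6.39 to 13.1, and 1.77 to 5.07. Endothelial markers stayed under 1 in sum (Emcn at 0), and markers of enteric neurons and glia under 2. None of the 8 mesenchyme, 9 T cell and 4 B cell and myeloid markers tested was called in any comparison. Of these, 1 B cell and myeloid marker had an unadjusted p under 0.05, in both comparisons of the libraries labelled CDX2KO_BRAF. In those libraries 14.1% of all tested genes were called against BRAF, so these counts are not read as unchanged cell content. Median differences from BRAF there were -1.40 for mesenchyme, -1.80 for T cell and -0.51 for B cell and myeloid markers. Over all tested genes the median was 0.02. The T cell markers had an SE of 0.84 (Cd3d) to 1.44 (Gzma) in that comparison.

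Hoxa3 was set beside these sums. In BRAF library 0, where mesenchyme and T cell markers summed to 11.0 and 24.3, Hoxa3 was 3.35 FPKM. In library 1 labelled CDX2KO_BRAF, where they summed to 20.9 and 45.8, it was 0.0245. In library 0 labelled CDX2KO_BRAF both sums were the lowest of all libraries (4.76 and 8.05), and Hoxa3 was 0.0179. The summed FPKM of the silent genes of HoxB, HoxC and HoxD was 1.14, 3.53 and 0.668 in the BRAF libraries, 2.74, 1.47 and 0.833 in the SMAD4KO_BRAF libraries, and 0.686 and 1.09 in the libraries labelled CDX2KO_BRAF. The highest sum was in BRAF library 1, which was also highest for mesenchyme and T cell markers, and 11 of the 16 silent genes of these clusters with any signal had their highest value there. The second highest sum, in SMAD4KO_BRAF library 0, came with a mesenchyme sum of 12.9 and rested on Hoxb6, and SMAD4KO_BRAF library 2, with the second highest mesenchyme and T cell sums (50.4 and 345), had 0.833. The part of other cells in the signal of Hoxa3 or of HoxB to HoxD was not tested. Without BRAF library 1, Hoxa3 differed by -2.19 (adjusted p = 0.00547) and Hoxa2 by -0.74 (adjusted p = 0.0842) in the libraries labelled CDX2KO_BRAF against BRAF.

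**Figure D4:**
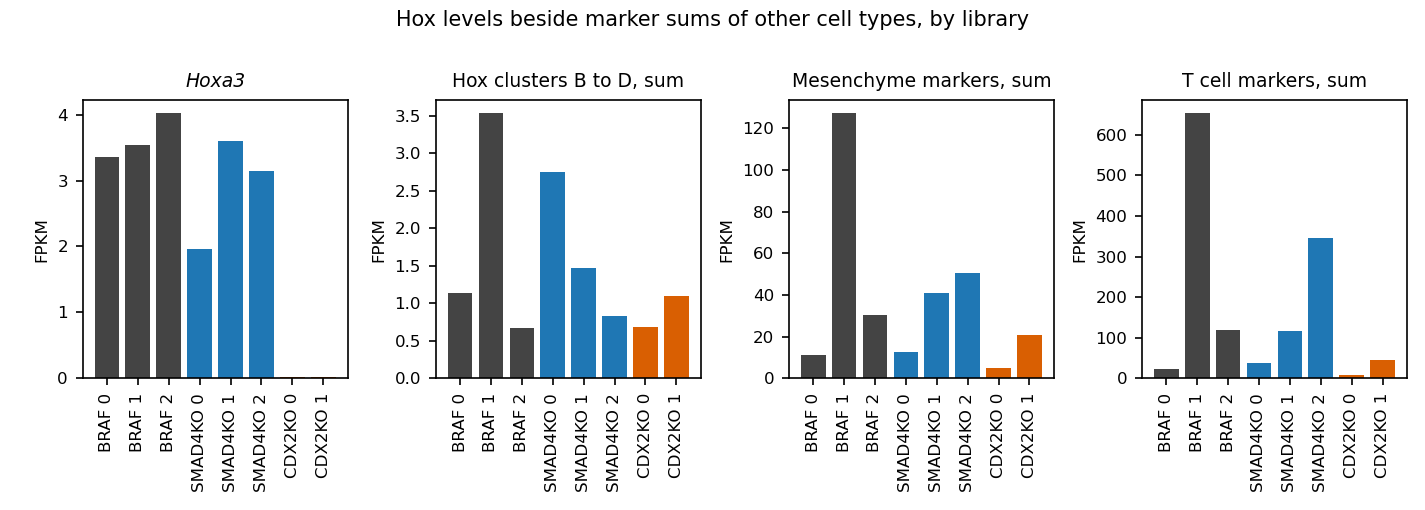
FPKM of Hoxa3, of the summed HoxB to HoxD genes, and of the summed mesenchyme and T cell markers, 1 bar per library, each panel on its own linear axis from 0. BRAF library 1 is highest in the 3 sums (3.53, 127 and 653) and not for Hoxa3, which is near 0 in both libraries labelled CDX2KO_BRAF.

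Transcripts of some partners of Hox factors were detected. Of 9 genes for PBX, MEIS and PKNOX cofactors, 5 passed the filter and none was called in any of the 3 comparisons (1 had an unadjusted p under 0.05, against BRAF in the libraries labelled CDX2KO_BRAF). In those libraries 14.1% of all tested genes were called against BRAF, so none of 5 is not read as a result about the cofactors. The most abundant was Pbx2, with 11.0 to 14.3 FPKM in the BRAF libraries, 12.9 to 18.2 in SMAD4KO_BRAF and 15 and 17.3 in the libraries labelled CDX2KO_BRAF. Against BRAF, Pbx3 differed by 0.54 ± 0.21 (adjusted p = 0.142) and Pbx2 by 0.36 ± 0.17 (adjusted p = 0.225) in the libraries labelled CDX2KO_BRAF. In SMAD4KO_BRAF the smallest adjusted p belonged to Pbx2 (0.32, adjusted p = 0.364) and Pknox1 (-0.22, adjusted p = 0.382). The median difference of the 5 genes was 0.40 in the libraries labelled CDX2KO_BRAF and 0.31 in SMAD4KO_BRAF, beside 0.02 and -0.01 over all tested genes.

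Genes for the proteins that hold Hox clusters active or silent all passed the filter. Of the 28 genes of the lists below, 1 of 12 and 3 of 16 were called in the libraries labelled CDX2KO_BRAF against BRAF, a share near the 14.1% of all tested genes called in either direction. Of 12 Trithorax group genes and activators, Kdm6b, a demethylase that removes the Polycomb mark from histone H3, was the only one called in the libraries labelled CDX2KO_BRAF against BRAF. It had 23.0, 17.6 and 19.7 FPKM in the BRAF libraries, 18.2, 16.0 and 17.0 in the SMAD4KO_BRAF libraries and 12.0 and 13.2 in the libraries labelled CDX2KO_BRAF, where it fell by 0.63 ± 0.13 (adjusted p = 0.0229). The libraries labelled CDX2KO_BRAF lay below the other 6. In the fit without the filter, 20.2% of all genes lay below every BRAF library in this way and 20.7% below every SMAD4KO_BRAF library. The call was lost in 6 of 16 alternatives, among them those without BRAF library 0 or 2 or either library labelled CDX2KO_BRAF.

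Of 16 Polycomb group genes, 1 was called lower and 2 higher in that comparison, beside 7.21% and 6.89% of all tested genes. The shares of all genes that lay below every library of another group, 20.2% and 20.7%, apply to this list too. Cbx8, a chromodomain subunit of Polycomb repressive complex 1, had 3.52, 3.63 and 3.81 FPKM in the BRAF libraries, 2.99, 2.98 and 2.91 in the SMAD4KO_BRAF libraries and 1.90 and 2.1 in the libraries labelled CDX2KO_BRAF, with no overlap between groups. It fell by 0.63 ± 0.12 against BRAF (adjusted p = 0.0152), a call lost without BRAF library 2 or either library labelled CDX2KO_BRAF and with a block for column number (highest adjusted p 0.106). Phc1 and Phc2, polyhomeotic subunits of the same complex, rose by 0.76 ± 0.20 (adjusted p = 0.0466) and 0.63 ± 0.17 (adjusted p = 0.0494), and these calls passed in 5 of 15 and 6 of 16 alternatives. Against SMAD4KO_BRAF 1 of 16 was called, in the lower direction, beside 5.01% of all tested genes called lower and 6.6% higher. It was Cbx2, which had 2.57, 2.98 and 3.71 FPKM there and 1.10 in each library labelled CDX2KO_BRAF (-0.95 ± 0.20, adjusted p = 0.0258, passing in 10 of 15 alternatives). In SMAD4KO_BRAF against BRAF no gene of either list was called and 1 had an unadjusted p under 0.05. Of all tested genes 0.0745% were called there, so no result about either list is read from this. Pcgf2 had the smallest adjusted p (0.73 ± 0.18, adjusted p = 0.188), followed in the Polycomb list by Jarid2 (-0.22, adjusted p = 0.357), while Ash2l and Kdm6b led the other list (0.27 and -0.22, both adjusted p = 0.413).

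The ParaHox genes, relatives of the Hox genes, include Cdx1, Cdx2 and Pdx1. Of 8 ParaHox and linked homeobox genes, 3 passed the filter, and 2 were called higher in the libraries labelled CDX2KO_BRAF than in BRAF and than in SMAD4KO_BRAF, where 6.89% and 6.6% of all tested genes were called higher. One of them was Cdx2, the gene floxed in the libraries labelled CDX2KO_BRAF, whose values and their limit are given above. Its call against SMAD4KO_BRAF passed in 7 of 16 alternatives. In the fit without the filter, both libraries labelled CDX2KO_BRAF lay above every BRAF library for 19% of all genes. They lay above every SMAD4KO_BRAF library for 18.4%. Pdx1, the factor of the duodenum and pancreas, had 1.63, 0.245 and 1.21 FPKM in the BRAF libraries, 0.757, 0.357 and 0.262 in the SMAD4KO_BRAF libraries, and 3.53 and 5.05 in the libraries labelled CDX2KO_BRAF, which lay above the other 6. It rose by 1.44 ± 0.34 against BRAF (adjusted p = 0.0342, passing in 7 of 15 alternatives) and by 1.86 ± 0.34 against SMAD4KO_BRAF (adjusted p = 0.0162, passing in 11 of 15). Cdx1 differed from BRAF by -0.36 ± 0.18 (adjusted p = 0.226), Cdx4 reached 0.0447 FPKM in 1 library, and Gsx1, Gsx2, Evx1 and Evx2 were listed at 0.

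Of 14 genes of retinoic acid signalling, 7 passed the filter and 2 were called higher in the libraries labelled CDX2KO_BRAF than in BRAF, as 6.89% of all tested genes were. Dhrs3, a retinal reductase, had 9.99, 18.5 and 11.7 FPKM in the BRAF libraries, 16.9, 12.2 and 16.6 in the SMAD4KO_BRAF libraries, and 27.0 and 41.1 in the libraries labelled CDX2KO_BRAF (1.30 ± 0.29, adjusted p = 0.0273, passing in 9 of 16 alternatives). Rarg, a retinoic acid receptor, rose by 0.85 ± 0.21 (adjusted p = 0.0381, passing in 6 of 15) and by 0.94 ± 0.21 against SMAD4KO_BRAF (adjusted p = 0.0317, passing in 6 of 15). Both genes were higher in 2 of 2 libraries than in any of the other 6. In the fit without the filter, 19% of all genes lay above every BRAF library in this way and 18.4% above every SMAD4KO_BRAF library. In SMAD4KO_BRAF against BRAF none of the 7 was called and 1 had an unadjusted p under 0.05. Of all tested genes 0.0745% were called there, so none of 7 is not read as a result. Rxrb differed by 0.26 (adjusted p = 0.279) and Rxra by -0.37 (adjusted p = 0.370).

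Position along the gut was then read from genes typical of its regions. In SMAD4KO_BRAF against BRAF, 0 of 7 proximal small intestinal, 4 distal small intestinal, 4 colonic and 5 gastric genes tested were called. Of all tested genes 0.0745% were called in that comparison. Each of the first 3 lists held 1 gene with an unadjusted p under 0.05: Lct (-1.33, adjusted p = 0.301), Fgf15 (1.40, adjusted p = 0.312) and Car4 (-2.34, adjusted p = 0.312). In the libraries labelled CDX2KO_BRAF against BRAF, 2 of 7 proximal, 1 of 4 distal and 2 of 4 colonic genes were called lower, and Pdx1 of the proximal list and 4 stomach genes were called higher. Of all tested genes 7.21% were called lower, 6.89% higher and 14.1% in either direction. Most tested genes of the proximal and distal lists were not called, which also holds for all tested genes. A link of these calls with the lower Hoxa2 and Hoxa3 was not tested.

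Lct, the lactase of the proximal brush border, had 76.4, 55.3 and 35.6 FPKM in the BRAF libraries and 0.494 and 0.0721 in the libraries labelled CDX2KO_BRAF (-5.42 ± 0.57, adjusted p = 0.00181, passing in 16 of 16 alternatives). Fabp1, the liver-type fatty acid binding protein, fell by 2.74 ± 0.65 (adjusted p = 0.0342, passing in 11 of 16). Gata4, a factor of the duodenum and jejunum named here after its values were seen, had 39.7 to 58.8 FPKM over all 8 libraries and differed by -0.02 ± 0.19 (adjusted p = 0.964). Fabp6, the ileal bile acid binding protein, had 71.7, 1083 and 226 FPKM in the BRAF libraries and 2.93 and 2.31 in the libraries labelled CDX2KO_BRAF (-6.18 ± 1.47, adjusted p = 0.0343), and the call was lost without BRAF library 1 or 2 or either library labelled CDX2KO_BRAF, without the filter and with a block for column number (highest adjusted p 0.165). Fabp6 varied widely within each of the first groups (15.6 to 430 FPKM in SMAD4KO_BRAF), and the labels do not say which stretch of jejunum was taken for a library.

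Of the colon list, Car4 fell by 6.83 ± 1.06 (adjusted p = 0.00749) and B4galnt2 by 1.15 ± 0.25 (adjusted p = 0.0249), with 2 of 4 tested called lower (7.21% of all tested genes were). The Car4 call was lost without either library labelled CDX2KO_BRAF (highest adjusted p 0.0608), and the B4galnt2 call without BRAF library 0 or 2 or either library labelled CDX2KO_BRAF (highest adjusted p 0.168). Both were also expressed in the jejunal BRAF libraries (104 to 271 FPKM for Car4 and 138 to 164 for B4galnt2), and Car1 of the same list was at 0 throughout. Of the stomach list, 4 of 5 tested were called higher (6.89% of all tested genes were), but Tff2 and Cldn18 passed the filter only through the libraries labelled CDX2KO_BRAF, so the count is not read as support. Tff2, a trefoil peptide of gastric mucous neck cells, was at most 1.37 FPKM in the 6 other libraries and 1256 and 2318 in those labelled CDX2KO_BRAF (10.04 ± 0.37, adjusted p = 2.14e-05), and Gkn1, Gkn2 and Cldn18 rose by 8.44, 9.45 and 6.86. Sox2 and Barx1, regulators of the embryonic stomach, were at 0 in all 8 libraries.

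**Figure D5:**
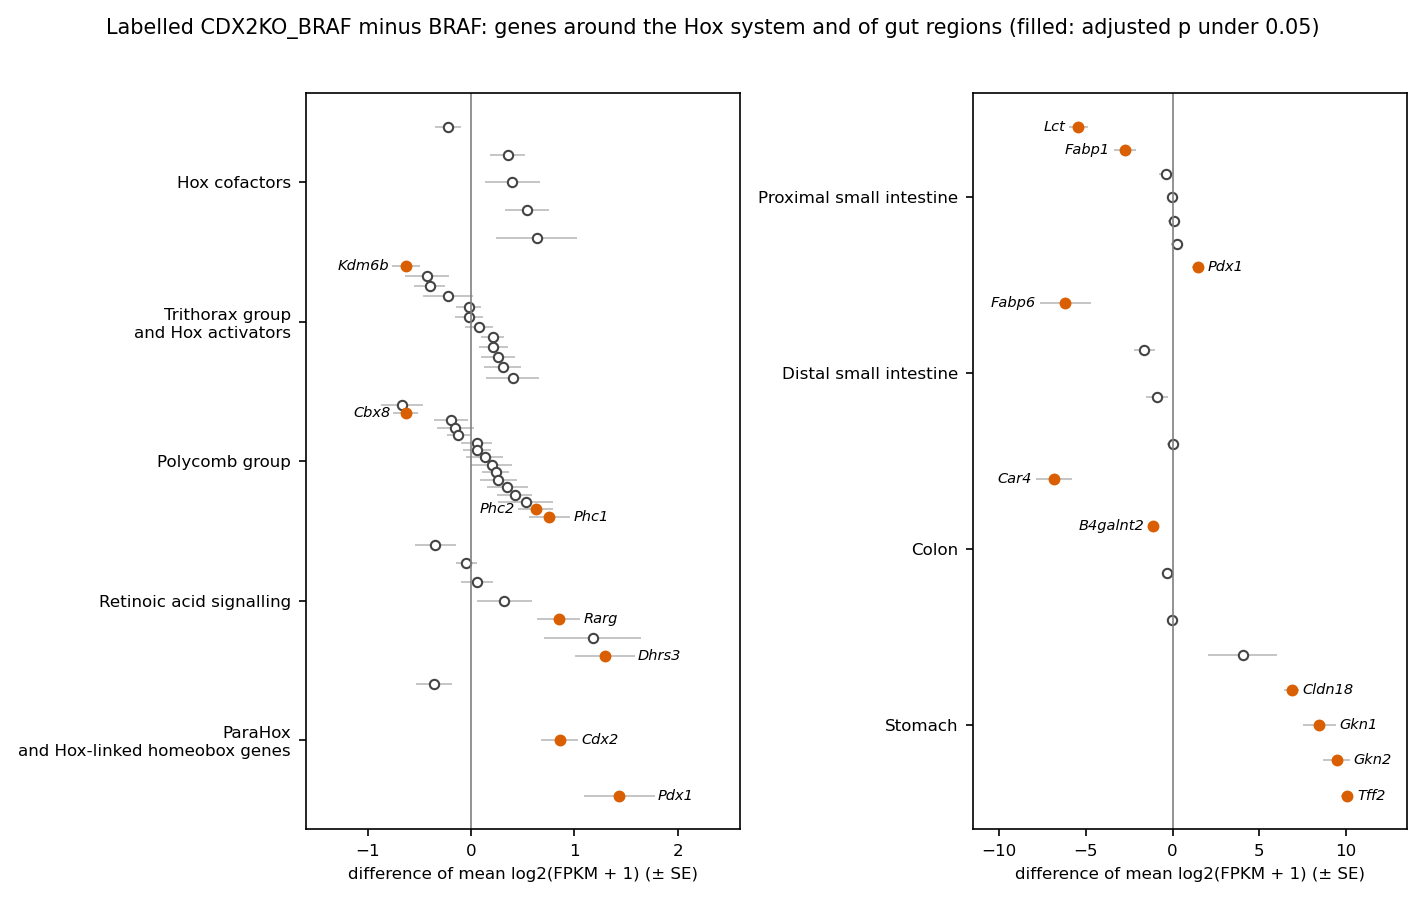
Differences of mean log2(FPKM + 1) between the libraries labelled CDX2KO_BRAF and BRAF (± SE), 1 point per tested gene, by list, filled and named where the adjusted p was under 0.05. The left panel holds regulators of Hox genes, with called genes between -0.63 (Kdm6b, Cbx8) and 1.44 (Pdx1); the right panel holds region genes on a wider axis, from -6.83 (Car4) to 10.04 (Tff2).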

How the data were processed

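The authors deposited FPKM values, scaled to transcript length and to the size of each library. The submitters' processing notes name TopHat2 2.1.0, Cuffnorm 2.2.1, Cuffdiff 2.2.1 and the mouse build mm9, and the labels give TruSeq RNA v2 libraries read for 50 bp from 1 end. Columns are numbered from 0 and titles from 1, so a column was matched to its group and not to a title, and a library is called by its column number. Another 3 columns, of no listed sample, were left out. The FPKM of a library summed to 431269 to 595547. With no counts the depth is unknown except relatively.

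From these values log2(FPKM + 1) was computed and 12084 genes (FPKM 1 or more in 2 or more of the 8 libraries) were fitted together with limma 3.58.1 (R 4.3.3, mean-variance trend, two-sided, Benjamini-Hochberg over all genes of each of 3 comparisons, threshold 0.05). The fit was tested on simulated data. Tables and figures used Python 3.11.15, pandas 2.3.3 and matplotlib 3.10.9. Alternatives changed the pseudocount, filter, scaling, groups fitted, library weights and libraries left out.

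The Hox members and the 15 lists were chosen with earlier results of these data known. By rule every Hox gene is named, and of each list the called members (up to 6) or otherwise up to 2 with the smallest adjusted p. The planned fit and comparisons were kept. Gene order and promoters come from RefSeq GRCm38.p6 and exon overlaps from GENCODE M21, neither in mm9, so coordinates are given only for promoter windows, in GRCm38.p6. 22 of 39 Hox symbols matched a promoter. Values of some members are not reported here.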

Additional observations from a re-analysis of the deposited data

How the results depend on the processing

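Hoxa3 kept its direction in the 15 alternatives of each comparison that tested it, and kept its call in both comparisons of the libraries labelled CDX2KO_BRAF. At a minimum FPKM of 5 no Hox gene was tested. The count of called Hox genes in each of those comparisons was 1 (Hoxa3) instead of 2 when only the 2 groups compared were fitted, where Hoxa2 did not pass the filter against BRAF and lost its call against SMAD4KO_BRAF, and 1 to 2 when 1 library was left out. The expressed Hox genes were 5 at FPKM of at least 0.5, 1 at FPKM of at least 2 and 0 when all 8 libraries had to reach the limit.

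The genes called over the whole table moved more. For SMAD4KO_BRAF against BRAF they were 9, with 5 without the filter, 1069 with library weights and 5 to 25 with 1 library left out (25, 16, 15 and 5 without BRAF library 1, BRAF library 2, SMAD4KO_BRAF library 0 and SMAD4KO_BRAF library 1). For CDX2KO_BRAF against BRAF they were 1704, with 2602 with library weights and 409 to 1833 with 1 library left out (1030 without BRAF library 2, and 585 and 409 without library 0 and 1 labelled CDX2KO_BRAF). For CDX2KO_BRAF against SMAD4KO_BRAF they were 1402, with 2447 with library weights and 234 to 1423 with 1 library left out (792 without SMAD4KO_BRAF library 2, and 399 and 234 without library 0 and 1 labelled CDX2KO_BRAF). Without 1 of the libraries labelled CDX2KO_BRAF the other is alone and assumed to vary like the rest. In SMAD4KO_BRAF against BRAF, where none of them was called, the difference changed sign for Hoxa2 (-0.0240 to 0.21 with 1 library left out), Skap2 (-0.0203 to 0.10) and Tax1bp1 (0.0700 after quantile normalization). The cause of these shifts was not tested.

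The planned replicate block by title number could not be run, because columns carry no title number. A replicate block by column number, added after seeing the file, left 805 genes called in CDX2KO_BRAF against SMAD4KO_BRAF and 1 Hox gene, Hoxa3, in each comparison of the libraries labelled CDX2KO_BRAF. Same-numbered columns had correlations of deviations of -0.109 to 0.241. Differently numbered columns were not compared, so these values cannot settle whether the numbers pair the libraries. Depth limits the silent genes: a value of 1 or 2 times the smallest one does not separate groups.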

Other observations

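Genes around HoxB, HoxC and HoxD were read by position, after values were seen. Of the 18 genes that flank these clusters, 3 on each side, 14 were tested and none was called in any of the 3 comparisons, beside 14.1% of all tested genes called against BRAF in the libraries labelled CDX2KO_BRAF, so 0 of 14 is not read as a difference from other genes or from HoxA. In the libraries labelled CDX2KO_BRAF against BRAF their differences ran from -0.63 to 0.54 (lowest adjusted p 0.0733, 3 genes with an unadjusted p under 0.05), against 0.44 to 2.14 for the 5 tested genes that flank HoxA. Skap1, a T cell adaptor gene next to Hoxb1 and the relative of Skap2, had 0.120, 2.07 and 0.379 FPKM in the BRAF libraries, 0.133, 0.854 and 1.41 in the SMAD4KO_BRAF libraries and 0.117 and 0.101 in the libraries labelled CDX2KO_BRAF. Its highest values were in BRAF library 1 and SMAD4KO_BRAF library 2, the libraries with the highest T cell marker sums.

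Hoxb13, a gene of the tail end of the body and the distal colon, had signal in BRAF libraries 0 and 1 (0.306 and 0.631 FPKM) and was listed at 0 in the other 6. In the fit without the filter it differed by -0.36 ± 0.16 in SMAD4KO_BRAF and by -0.36 ± 0.18 in the libraries labelled CDX2KO_BRAF, both against BRAF, with adjusted p = 0.444 and 0.309.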
